A study of Homo sapiens with 3 samples.

Results

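Genes of DNA replication and targets of the E2F transcription factors were described on 3 single-channel arrays of HEK293T cells. The 40 genes were taken from a list fixed by name, and every probe set (a group of short probes read as 1 value) annotated to 1 of them was used. Of the 40, 39 were measured, by 58 of 19064 named probe sets. The expression of UHRF1 was not analysed here, and UHRF1 enters only the promoter counts. HEK293T, a line from human embryonic kidney, expresses large T antigen of the virus SV40. All 3 samples were transfected with dCas9VP160, a nuclease-dead Cas9 joined to an activation domain, and they differed in the guide RNA. One array was made with sgIL1RN1~3, directed to the IL1RN promoter, 1 with sgTetO, whose target is the TetO promoter, and 1 with sgTetOmut, its mutant, which the labels call non-targeting. The control arrays therefore carry the activator as well, and an array without dCas9VP160 was not analysed here. Each guide had 1 array of 1 cell line, so no difference below has a replicate error, no test between guides was made, and the difference between both control arrays is the available scale. The labels name no sorting of transfected cells, and a value is an average over all cells in the well.

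Replication starts when the origin recognition complex, CDC6 and CDT1 load the MCM helicase on DNA in G1. CDC45 and GINS turn the helicase on in S phase, the primase and polymerases copy both strands with the PCNA clamp, and nicks are sealed by ligase. Most of these genes are E2F targets: the retinoblastoma family of proteins holds E2F in check until late G1, and large T antigen binds that family and releases E2F. HEK293T cells are known to divide fast.

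Promoter windows of these genes were read from RefSeq (GRCh38.p14), from 250 bases before to 50 after the gene start, to show the E2F motif that several of them share. The motif was searched on both strands as TTTCCCGC, TTTCGCGC, TTTGCCGC or TTTGGCGC. Of 35 listed genes with a window, 19 (54.3%) held at least 1 match in a window, against 3.99% of all genes in the table. Counted by window, 20 of 46 (43.5%) held one, against 3.31% of 35116 windows of the same length. The list was drawn up as E2F targets, so this share describes the choice. CCAAT, a box common in cell cycle promoters, was found in 63.0% of the members' windows and in 34.6% of all windows, on either strand. A CCAAT box can overlap an E2F match by its first base, as it does in MCM7 next to the start. A match is a run of letters and not a measured binding site. The windows below belong to MCM7 and CDT1, which were furthest above both controls with sgIL1RN1~3 among genes with a window, to CDC6, which was furthest below, and to PCNA and E2F1, the clamp and the transcription factor of the group. Capitals mark the E2F matches.
MCM7, chr7:100101348-100101647, minus strand: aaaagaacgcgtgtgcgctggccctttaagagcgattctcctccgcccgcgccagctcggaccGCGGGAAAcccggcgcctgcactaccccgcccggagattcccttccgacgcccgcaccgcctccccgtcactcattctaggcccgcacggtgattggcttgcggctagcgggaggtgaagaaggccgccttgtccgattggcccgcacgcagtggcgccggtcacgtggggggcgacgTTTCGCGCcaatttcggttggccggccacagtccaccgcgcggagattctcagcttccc
CDT1, chr16:88803539-88803838, plus strand: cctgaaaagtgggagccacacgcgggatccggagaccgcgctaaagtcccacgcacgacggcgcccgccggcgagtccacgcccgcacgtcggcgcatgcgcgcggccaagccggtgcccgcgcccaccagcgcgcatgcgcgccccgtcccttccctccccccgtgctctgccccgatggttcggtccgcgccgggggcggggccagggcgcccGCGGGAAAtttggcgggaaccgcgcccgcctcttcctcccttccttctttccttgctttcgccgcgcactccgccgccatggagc
CDC6, chr17:40287629-40287928, plus strand: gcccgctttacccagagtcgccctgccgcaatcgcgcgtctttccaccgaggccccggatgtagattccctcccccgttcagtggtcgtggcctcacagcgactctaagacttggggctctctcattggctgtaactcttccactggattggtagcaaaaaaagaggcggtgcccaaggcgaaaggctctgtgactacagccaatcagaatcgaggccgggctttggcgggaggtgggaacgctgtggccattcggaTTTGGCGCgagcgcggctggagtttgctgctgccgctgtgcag
PCNA, chr20:5126573-5126872, minus strand: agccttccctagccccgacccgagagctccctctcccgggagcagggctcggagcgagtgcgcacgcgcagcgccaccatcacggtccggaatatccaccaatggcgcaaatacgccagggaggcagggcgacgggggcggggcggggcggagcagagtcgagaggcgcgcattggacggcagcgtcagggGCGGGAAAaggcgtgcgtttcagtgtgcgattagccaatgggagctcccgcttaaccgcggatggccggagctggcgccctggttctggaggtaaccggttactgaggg
E2F1, chr20:33686336-33686635, minus strand: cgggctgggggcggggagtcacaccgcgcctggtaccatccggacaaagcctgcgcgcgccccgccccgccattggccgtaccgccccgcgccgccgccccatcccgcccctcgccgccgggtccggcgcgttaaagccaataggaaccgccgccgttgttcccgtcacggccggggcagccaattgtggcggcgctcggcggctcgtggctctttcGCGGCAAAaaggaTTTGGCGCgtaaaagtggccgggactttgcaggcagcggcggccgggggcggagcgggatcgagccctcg
Counted from the start, with negative positions before it, the MCM7 matches began at bases -187 and -9, and the other 2 MCM7 windows held none. CDT1 and PCNA had 1 match each, at -35 and -59, and the other PCNA window held none. CDC6 had 1 match at base 8, and E2F1 had matches at -33 and -20.

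The members were above background on every array. Background was read from the 27 chip control sets for Bacillus subtilis transcripts, the highest of which lay at 3.40 with sgIL1RN1~3, 3.40 with sgTetO and 3.29 with sgTetOmut on the log2 scale. All 58 member sets exceeded it on each array, the dimmest of them, MCM4 set 212142_at, narrowly on the controls, at 3.66 with sgTetO and 3.59 with sgTetOmut. Their median log2 value was 8.54 with sgIL1RN1~3, 8.45 with sgTetO and 8.55 with sgTetOmut, against medians of 5.49, 5.46 and 5.49 over all named sets. Between 53 and 54 of the 58 sets lay above that overall median, and every one of the 39 genes had a set above it on each array. Probe sets differ in how well they bind, so levels are not ranked between genes. The highest values belonged to MCM4 set 222037_at, at 12.72, 12.78 and 12.48 with sgIL1RN1~3, sgTetO and sgTetOmut, and the lowest were 4.56 with sgIL1RN1~3 (TYMS set 217684_at) and 3.66 and 3.59 with sgTetO and sgTetOmut (MCM4 set 212142_at). RRM2, the regulated subunit of ribonucleotide reductase, read 12.11, 12.06 and 12.07 by its set 201890_at. PCNA read 11.36, 11.57 and 11.50, and GMNN, which encodes geminin, the inhibitor of CDT1, read 10.84, 11.25 and 11.21.

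**Figure D1:**
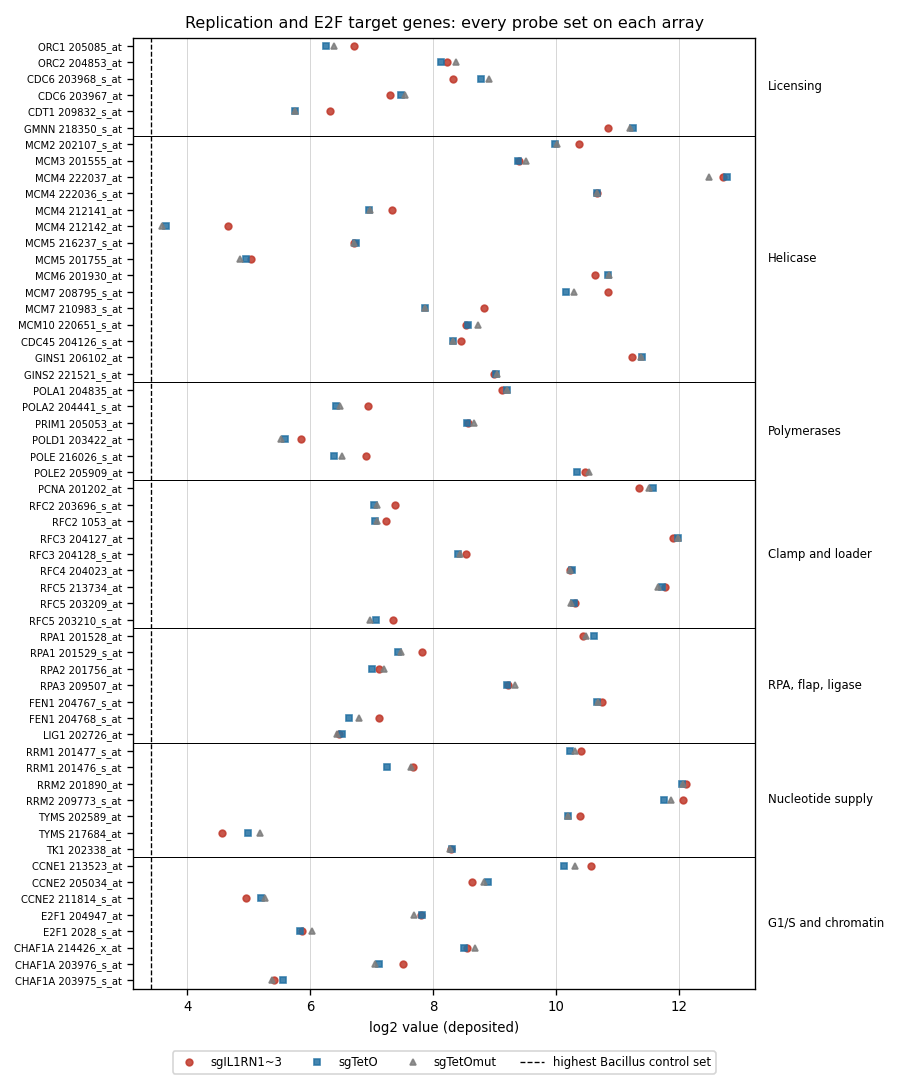
Deposited log2 value (horizontal axis) of each of the 58 member probe sets on the sgIL1RN1~3, sgTetO and sgTetOmut arrays, grouped by role, with the highest Bacillus control value, 3.40, as a dashed line. All sets lie right of the line on every array, and sets of 1 gene such as MCM4 lie far apart.

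The array of the targeted gene and the markers of the cells were checked once. IL1RN read 7.01 with sgIL1RN1~3, 2.28 with sgTetO and 2.23 with sgTetOmut by its set 212657_s_at, and both control values lay under the highest Bacillus value. Of the other 4 IL1RN sets, 212659_s_at was 0.93 and 0.52 higher with sgIL1RN1~3 than with sgTetO and sgTetOmut, and the other 3 lay under the Bacillus value on every array. Each marker gene was read by its brightest set. All 8 measured HEK293T markers (KRT8, KRT18, VIM, NEFL, NEFM, PAX2, PAX8 and LHX1) were above background on each array. PAX8 and LHX1 were so only narrowly. With sgIL1RN1~3, sgTetO and sgTetOmut, PAX8 read 3.74, 3.74 and 3.92 and LHX1 read 3.51, 3.51 and 3.64. Of 10 measured markers of blood, endothelium, fibroblasts and muscle, 5 were above background on all arrays (CD14, CDH5, COL1A1, COL3A1 and ACTA2). CDH5, at 3.74, 3.53 and 3.74 in the same order of arrays, and CD14, at 3.89, 3.83 and 4.23, were so only narrowly. PTPRC, CD3E, VWF and DCN were under background on each array. PECAM1, at 3.08, 3.30 and 3.71, was above it with sgTetOmut alone. The sgIL1RN1~3 array stood apart in the chip controls for RNA length. Its 5' set of ACTB was 0.95 log2 units above sgTetO and 0.82 above sgTetOmut, its middle set 0.69 and 0.64 above, and its 3' set 0.06 and 0.07 above. For GAPDH the 5' set was 0.84 and 0.66 higher, the middle set 0.58 and 0.54 higher, and the 3' set differed by -0.01 and 0.03. These differences moved with the sgIL1RN1~3 array, as do all differences reported for it here, and their part in them was not tested.

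With the IL1RN guides, 4 member sets of 3 genes were at least 0.5 log2 units (1.41-fold) above both controls: both sets of MCM7, 1 of the 4 sets of MCM4, and the set of CDT1. They make up 6.9% of the 58 member sets, against 2.42% of the 13793 named sets whose mean over the arrays exceeded the Bacillus values, a limit that all member sets passed. No member set was 0.5 log2 units below both controls, against 1.65% of all named sets. At 1 log2 unit the MCM4 set alone was above both (0.0653% of all named sets were) and no member was below both (0.0870%). Against sgTetO alone 6 member sets were at least 0.5 log2 units higher (5.66% of all named sets were) and 0 lower (3.31%), and against sgTetOmut alone 4 were higher (3.65%) and 2 lower (3.29%). On the sgTetO array 0 member sets were 0.5 log2 units above both other arrays (0.348% of all) and 0 were below (0.471%). On the sgTetOmut array the counts were likewise 0 above (0.776%) and 0 below (0.181%).

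Over all 58 sets, the shift was small. The median difference was 0.06 log2 units for sgIL1RN1~3 minus sgTetO, against 0.03 over all named sets past the level limit, and 0.04 for sgIL1RN1~3 minus sgTetOmut, against 0.00. The comparisons share the sgIL1RN1~3 array. Member sets were highest on sgIL1RN1~3 in 28 cases (48.3%, against 41.3% of all named sets), lowest there in 16 (27.6%, against 33.2%) and in between or tied in 14. They ranged from -0.45 to 1.01 relative to sgTetO and from -0.62 to 1.08 relative to sgTetOmut. Differences of under 0.25 log2 units in size were found for 62.1% of member sets relative to sgTetO and 65.5% relative to sgTetOmut, against 66.8% and 70.8% of all named sets.

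Between the controls the members lay closer together. All 58 sets differed by under 0.5 log2 units for sgTetO minus sgTetOmut, as did 97.5% of all named sets, of which 0.783% were at least 0.5 higher and 1.75% at least 0.5 lower with sgTetO. Of the 58, 56 (96.6%) differed by under 0.25, against 85.2% of all. The median difference was -0.02 for the members and -0.02 over all named sets, and the median size was 0.07 and 0.10. These comparisons were not matched for level: 8 of the 58 member sets had a mean under 6, against 5287 of the 13793 named sets. The part of level in the closer values was not tested. The members furthest apart were RRM1 set 201476_s_at, 0.39 lower with sgTetO, and MCM4 set 222037_at, 0.30 higher. RRM1 is the large subunit of ribonucleotide reductase, and its other set, 201477_s_at, was 0.08 lower.

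**Figure D2:**
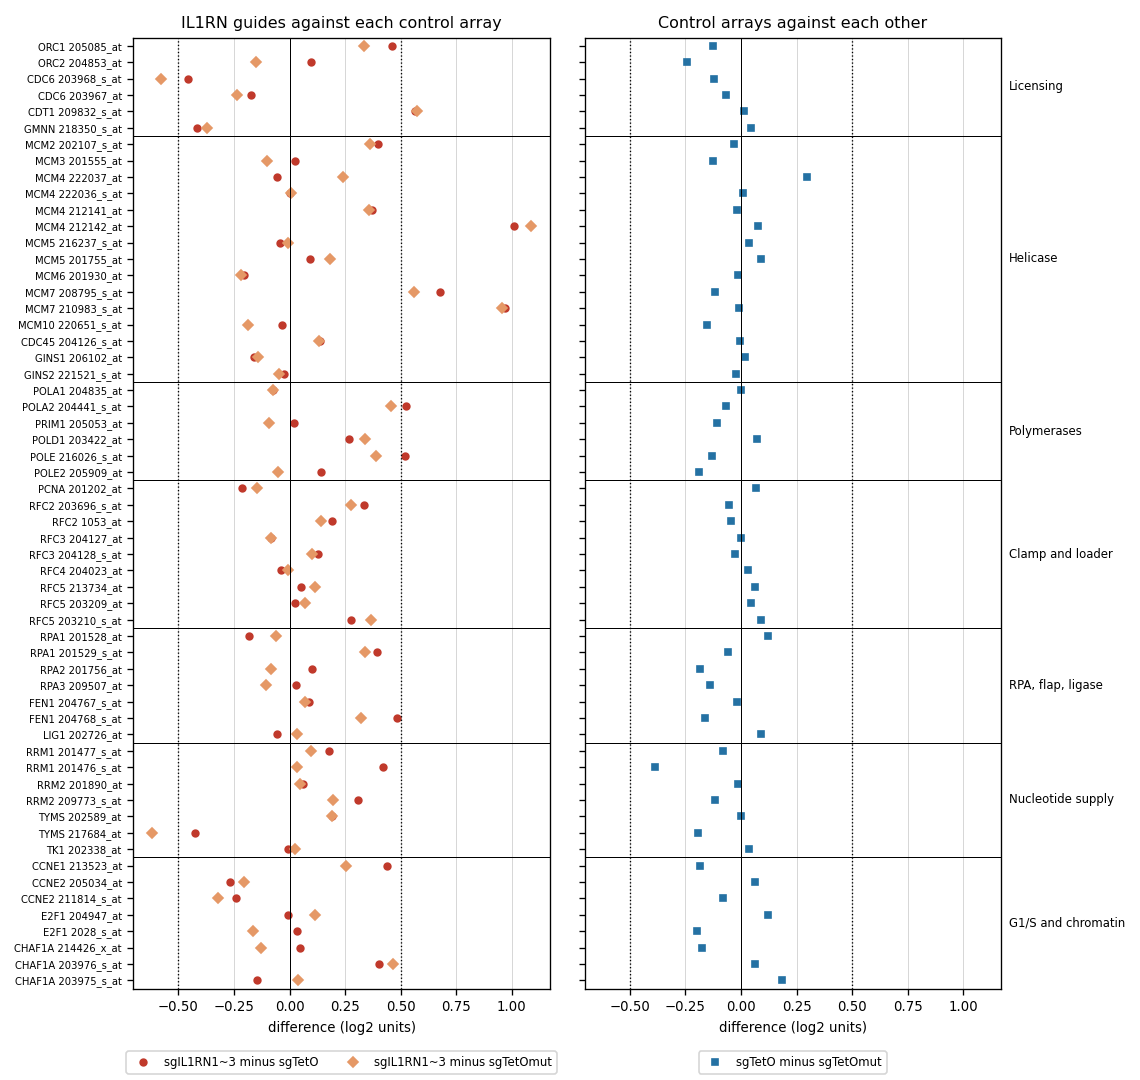
Log2 difference (horizontal axis) of each member probe set, for sgIL1RN1~3 minus each control array on the left and sgTetO minus sgTetOmut on the right, with dotted lines at 0.5 and -0.5. The sets past the line against both controls are both MCM7 sets, MCM4 set 212142_at and the CDT1 set. All 58 sets lie between the lines for the controls.

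Among the licensing genes, members of the same step differed in direction on sgIL1RN1~3: of 6 sets, 2 were highest there, 3 lowest and 1 in between. CDT1, which brings the MCM ring to origins, read 6.32 with sgIL1RN1~3, 5.76 with sgTetO and 5.75 with sgTetOmut, a difference of 0.56 and 0.57 log2 units (1.48-fold and 1.49-fold), while the controls lay 0.01 apart. CDT1 did not reach a limit of 1.5-fold, and with 16 added to the linear values its differences were 0.45 and 0.46, short of 0.5. CDC6, the loader that acts with CDT1, was lower on the same array. Its set 203968_s_at read 8.33 against 8.78 and 8.90, which is 0.45 and 0.58 lower and the furthest below both controls of all member sets, and its set 203967_at read 7.30 against 7.47 and 7.54. Both CDC6 sets were thus lowest with sgIL1RN1~3. Geminin was also lower, by 0.42 and 0.37. ORC1, the regulated subunit of the origin recognition complex, read 6.72 against 6.25 and 6.38, and ORC2 read 8.22 against 8.13 and 8.37, between the controls. By size, all but CDT1 fell short of the limit of 0.5 against both controls.

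The MCM2 to MCM7 proteins form 1 ring with a copy of each, and their probe sets differed in direction. Of the 15 sets of all helicase genes, 7 were highest and 5 lowest on sgIL1RN1~3. MCM7 was higher with sgIL1RN1~3 in both sets: 208795_s_at read 10.84 with sgIL1RN1~3, 10.16 with sgTetO and 10.28 with sgTetOmut, and 210983_s_at read 8.83, 7.86 and 7.87. These are 1.60-fold and 1.47-fold for the first set and 1.96-fold and 1.94-fold for the second. The controls lay 0.12 and 0.01 apart in these sets, less than the difference of either set from a control. MCM2 read 10.37 against 9.97 and 10.01, 0.40 and 0.36 higher. MCM4 depended on the set: 212142_at read 4.67 against 3.66 and 3.59, which is 2.01-fold and 2.12-fold over control values close to background and 0.53 and 0.57 log2 units with 16 added to the linear values, and 212141_at read 7.34 against 6.96 and 6.98. Its brighter sets did not share this, since 222036_s_at read 10.67, 10.67 and 10.66 and 222037_at lay between the controls. MCM6 was lower, at 10.64 against 10.84 and 10.85. MCM3 read 9.40 against 9.38 and 9.51. MCM5 differed by 0.09 and 0.18 in its set 201755_at and by -0.04 and -0.01 in 216237_s_at.

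The genes that turn the helicase on stayed closer. CDC45, which joins the ring to make it active, read 8.46 with sgIL1RN1~3, 8.32 with sgTetO and 8.33 with sgTetOmut. GINS1 and GINS2, subunits of the GINS complex, differed by -0.16 and -0.03 from sgTetO and by -0.14 and -0.05 from sgTetOmut. MCM10, a scaffold that helps activate the helicase, read 8.54 against 8.57 and 8.72. For these 4 genes, which have 1 set each, the largest difference from a control was that of MCM10 from sgTetOmut, 0.19 lower.

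Of the polymerase genes, 3 of 6 were highest with sgIL1RN1~3. POLA2, the accessory subunit of polymerase alpha, read 6.94 on the sgIL1RN1~3 array, 6.41 on sgTetO and 6.48 on sgTetOmut. POLE, the catalytic subunit of the leading-strand polymerase epsilon, read 6.91 against 6.39 and 6.52. Each was 0.52 above sgTetO, and they were 0.46 and 0.39 above sgTetOmut, short of the limit. POLD1, the catalytic subunit of polymerase delta, read 5.86 against 5.59 and 5.52. Among the members, the partners of POLA2 and POLE did not share these differences. POLA1, the catalytic subunit of polymerase alpha, was 0.08 lower than on either control. The primase subunit PRIM1 differed by 0.02 and -0.09, and POLE2, the second subunit of polymerase epsilon, by 0.14 and -0.05. The list of members holds no partner subunit of POLD1, but the list of other genes below does. Relative to sgTetO and sgTetOmut, POLD2 was 0.66 and 0.49 higher with sgIL1RN1~3 and POLD4 0.53 and 0.27 higher. POLD3 was 0.13 and 0.17 lower.

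The clamp and its loader differed little. PCNA, the sliding clamp, was 0.22 and 0.15 lower with sgIL1RN1~3 than with sgTetO and sgTetOmut. RFC2 to RFC5 are small subunits of the clamp loader. The RFC2 sets were 0.33 and 0.28 higher (203696_s_at) and 0.19 and 0.14 higher (1053_at). RFC4 read 10.22 against 10.26 and 10.23. RFC5 differed by 0.27 and 0.37 in 203210_s_at, by 0.05 and 0.12 in 213734_at and by 0.02 and 0.07 in 203209_at. For RFC3 the sets had opposite signs, 204128_s_at being 0.13 and 0.10 higher and 204127_at 0.08 lower against each control. Over the 9 sets of these 5 genes, 6 were highest and 3 lowest on sgIL1RN1~3.

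Replication protein A coats single-stranded DNA as a trimer of RPA1, RPA2 and RPA3. With FEN1 and LIG1 these genes had 7 sets, of which 3 were highest and 1 lowest on sgIL1RN1~3. RPA1 differed by 0.40 and 0.34 in its set 201529_s_at and by -0.18 and -0.06 in 201528_at, for sgIL1RN1~3 minus sgTetO and sgTetOmut. RPA2 read 7.11 against 7.01 and 7.19, and RPA3 read 9.22 against 9.20 and 9.33, both between the controls. FEN1, the nuclease that trims flaps of Okazaki fragments, was 0.48 and 0.32 higher in 204768_s_at and 0.09 and 0.07 higher in 204767_s_at. LIG1, the ligase that joins those fragments, read 6.47 against 6.52 and 6.43.

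For nucleotide supply, 5 of 7 sets were highest with sgIL1RN1~3 and 1 was lowest, with medians of 0.18 above sgTetO and 0.05 above sgTetOmut. RRM1 set 201476_s_at read 7.67 with sgIL1RN1~3, 7.26 with sgTetO and 7.64 with sgTetOmut, so sgTetO stood apart there, and 201477_s_at read 10.40, 10.23 and 10.31. RRM2 was 0.31 and 0.19 higher in 209773_s_at and 0.06 and 0.05 higher in 201890_at. TYMS, thymidylate synthase, was split: the bright set 202589_at read 10.39 against 10.20 on each control, and the dim set 217684_at read 4.56 against 4.99 and 5.18. That dim set was 0.42 and 0.62 lower with sgIL1RN1~3. TK1, thymidine kinase, read 8.30, 8.30 and 8.27.

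The E cyclins, which activate CDK2 for entry into S phase, differed in sign. CCNE1 read 10.57 with sgIL1RN1~3, 10.13 with sgTetO and 10.32 with sgTetOmut. CCNE2 was lower in both its sets, by 0.27 and 0.20 in 205034_at and by 0.24 and 0.32 in 211814_s_at. E2F1 itself differed by under 0.2 log2 units between any arrays in each set: 204947_at read 7.81, 7.82 and 7.69 and 2028_s_at read 5.87, 5.84 and 6.04. CHAF1A, the large subunit of the histone chaperone that follows the fork, was 0.40 and 0.47 higher in 203976_s_at, while 203975_s_at differed by -0.15 and 0.04 and 214426_x_at by 0.05 and -0.13.

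**Figure D3:**
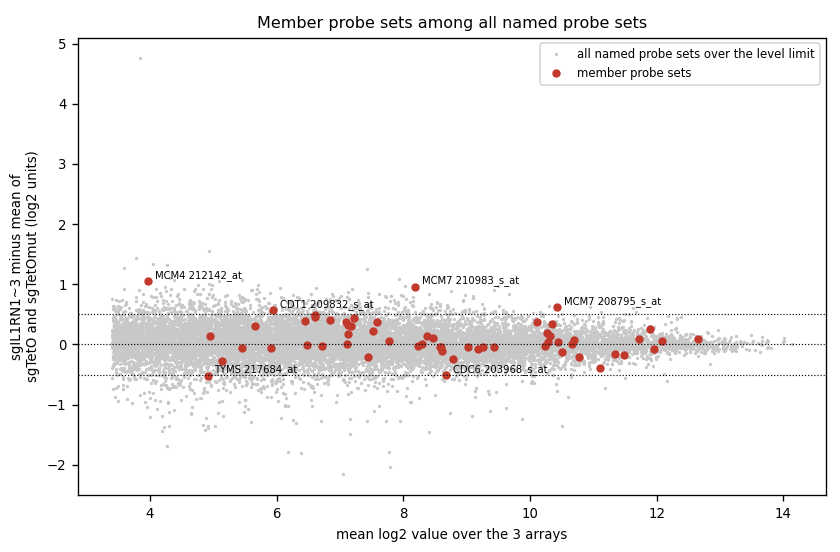
Log2 value with sgIL1RN1~3 minus the average of the sgTetO and sgTetOmut arrays (vertical axis) against the mean log2 value over the 3 arrays (horizontal axis), for all 13793 named probe sets past the level limit in grey and the 58 member sets in red. Most member sets lie within the grey cloud, and both MCM7 sets lie near its upper edge at their level.

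Sets of the same gene did not always share a direction. Of 15 genes with more than 1 set, 7 had all sets above the mean of the controls on sgIL1RN1~3 (MCM4, MCM7, RFC2, RFC5, FEN1, RRM1 and RRM2), 2 had all below it (CDC6 and CCNE2) and 6 were mixed. MCM4 and TYMS had sets at least 0.5 log2 units apart in that difference, 1.04 for MCM4 and 0.71 for TYMS. For MCM4, 222036_s_at was level with the controls (0.00 and 0.01 higher) and 222037_at lay between them. How often all named genes with several sets fall into these groups was not counted. In 9 of the 15 genes (60%) the set with the lowest mean value had a higher difference than the set with the highest mean value against both controls, as in 43.9% of 3078 named genes with several sets past the level limit. Against 1 control at a time the rule is easier to meet. It held for 12 of the 15 (80%) relative to sgTetO, against 56.0% of the named genes. Relative to sgTetOmut it held for 10 (66.7%), against 54.4%. For sgTetO minus sgTetOmut, also a single comparison, it held for 6 of the 15 (40%), against 47.2%. The median spread between sets of a gene was 0.25 and 0.28 log2 units for sgIL1RN1~3 minus sgTetO and sgTetOmut, and 0.14 for sgTetO minus sgTetOmut. The 5' and middle control sets of ACTB and GAPDH, given above, moved with the same array, and where the members' sets lie along their transcripts is not given in the sources used here.

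**Figure D4:**
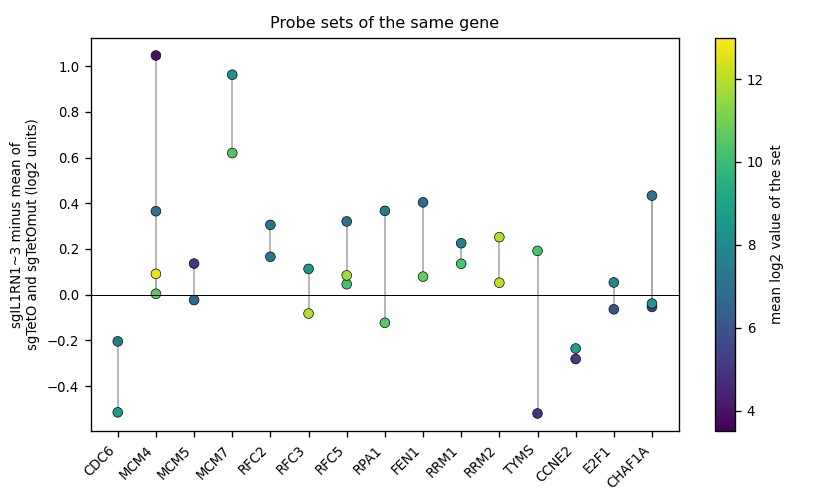
Log2 value with sgIL1RN1~3 minus the average of the sgTetO and sgTetOmut arrays (vertical axis) for each probe set of the 15 genes with several sets, coloured by the set's mean log2 value. The sets of MCM4 and TYMS are spread widest, 1.04 and 0.71, and both MCM7 sets lie above 0.5.

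Members with and without an E2F match in their promoter window were set side by side as a description. Only the exact letters given above were searched, so a window without a match can still hold a variant of the motif. The 18 measured genes with a match had 23 sets, of which 8 were highest and 10 lowest on sgIL1RN1~3, with a median difference of -0.01 from sgTetO and -0.05 from sgTetOmut. The 16 measured genes with a window and no match had 25 sets, of which 17 were highest and 3 lowest, with medians of 0.14 and 0.09. Over all named sets past the level limit, 41.3% were highest and 33.2% lowest on sgIL1RN1~3, with medians of 0.03 and 0.00. MCM7, CDT1 and CDC6, whose windows are printed above, all belong to the first class and include, among genes with a window, the sets furthest above and furthest below both controls. Between sgTetO and sgTetOmut the medians were -0.02 and -0.05 for the classes with and without a match.

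Other replication and E2F genes, named in a list of 67, were measured for 59 genes by 92 sets, of which 86 passed the level limit. With sgIL1RN1~3, 2 of the 86 (2.33%) were at least 0.5 log2 units above both controls and 0 were below, against 2.42% and 1.65% of all named sets. On each control array 0 were above and 0 below. CDC25A, a phosphatase that activates CDK2, was 1 of them: its dim set 204696_s_at read 4.62 against 3.76 with sgTetO and 3.91 with sgTetOmut, while its bright set 204695_at read 11.16 against 10.97 and 11.26. TFDP1, a partner with which E2F1 binds DNA, was the other. It read 5.24 against 4.66 and 4.64 in 204147_s_at and 11.48 against 11.29 and 11.34 in 212330_at. The medians of the 86 sets were 0.05 and 0.02 for sgIL1RN1~3 minus sgTetO and sgTetOmut, and -0.04 for sgTetO minus sgTetOmut.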

How the data were processed

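Expression was measured on 1 array for each of 3 guides. The authors deposited log2 values for 22277 probe sets; per the submitters' processing notes, affy was the tool. No version, background correction or normalization is named in those notes. The log2 unit was inferred from the range of the values, 1.36 to 14.5. The medians over all named sets were close, at 5.49, 5.46 and 5.49 with sgIL1RN1~3, sgTetO and sgTetOmut. A difference is therefore read relative to the bulk of genes, although how the columns were scaled is not known. GEO's platform annotation gave the gene names, and sets with several genes (1043) or a chip control were left out. The identifiers of all 58 member sets led to the same symbols in the GRCh38.p14 gene table. Differences were taken between arrays. Sets whose mean over the arrays exceeded 3.40, the highest Bacillus control value, entered the counts (72.4% of named sets). A set was counted when it lay 0.5 log2 units beyond both other arrays. All members were named, as were the listed marker genes and the target IL1RN. Genes of the other pathway list were named only where a set passed that limit, apart from the partners of POLD1. The members and lists were chosen with earlier results of these data known. The counting was tested on simulated data. Alternatives covered scaling, the level and size limits, the summary over sets, 16 added to the linear values, and single controls. Python 3.11.15, numpy 2.4.6, pandas 2.3.3, R 4.3.3 and limma 3.58.1 were used. The number of arrays limits the precision.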

Additional observations from a re-analysis of the deposited data

How the results depend on the processing

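No paired analysis was possible because each guide had 1 array and no test was made, and no array could be left out as a replicate. The count of 4 member sets above both controls on sgIL1RN1~3 was 2 of 39 genes when each gene was the mean of its sets (1.39% of all genes), 2 of 39 when each gene was its brightest set (1.68%), 2 of 58 sets at a limit of 1.5-fold (1.33% of all sets), where CDT1 and MCM7 set 208795_s_at were lost, and 1 at 1 log2 unit (0.0653%). Fewer units are counted by gene, and a higher size limit can pass only fewer. It was 3 of 53 with the level limit at the median of named sets (1.89%), 3 of 58 with 16 added (1.07%), 6 against sgTetO alone (with POLA2 and POLE) and 4 against sgTetOmut alone. The same 4 sets were counted under quantile and cyclic loess scaling. The count of 0 below both controls was 1 of 58 under quantile scaling, where CDC6 set 203968_s_at was 0.51 and 0.56 lower than on sgTetO and sgTetOmut. It was 2 against sgTetOmut alone, with CDC6 and TYMS. As deposited, 1.65% of all named sets were below both controls and 3.29% below sgTetOmut alone. The shares of all named sets under quantile and cyclic loess scaling are not given here. All counts on the control arrays were 0 under every alternative. The median differences moved by less than 0.10 log2 units, the median size of difference between the controls, but some signs turned: sgTetO minus sgTetOmut was 0.03 under quantile and 0.02 under cyclic loess scaling, and sgIL1RN1~3 minus sgTetOmut was -0.01 with the brightest set of each gene. Of 174 differences of single member sets, none moved by that size under either scaling, and 7 did with 16 added.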

Other observations

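Grouped by level after the values were seen, the 16 member sets with a mean log2 value between 6 and 8 had a median difference of 0.35 for sgIL1RN1~3 minus sgTetO and 0.30 for sgIL1RN1~3 minus sgTetOmut, against 0.04 and 0.01 over 3633 named sets of that level. They include sets of POLA2, POLE, ORC1, FEN1, CHAF1A and RPA1, which were higher with sgIL1RN1~3. RRM1 set 201476_s_at, also of this level, was 0.42 above sgTetO but only 0.03 above sgTetOmut. CDC6 set 203967_at, also among the 16, was 0.17 and 0.24 lower than on sgTetO and sgTetOmut. The sets of MCM5, LIG1, RPA2 and E2F1 at this level differed by at most 0.11 in size. None of the 16 lay 0.5 log2 units above both controls, against 2.56% of named sets of that level. For sgTetO minus sgTetOmut the same sets had a median of -0.06, against -0.02. The 8 member sets under 6 had medians of 0.06 and 0.11 for sgIL1RN1~3 minus sgTetO and sgTetOmut, against 0.03 and 0.02, and 2 of them (25%), from MCM4 and CDT1, lay 0.5 log2 units above both controls, against 3.59% of named sets. The 14 sets between 8 and 10 had medians of 0.02 and -0.10, against 0.02 and -0.02, and 1 of them, from MCM7, lay above both (1.59% of named sets). The 20 member sets above 10 had medians of 0.04 and 0.06 for sgIL1RN1~3 minus sgTetO and sgTetOmut, against 0.01 and -0.01 over 2109 named sets. Of these 20 the MCM7 set 208795_s_at was the 1 that lay 0.5 log2 units above both controls, as did 0.332% of named sets of that level.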
